A study of Saccharomyces cerevisiae with 4 samples.

Results

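The transcript profile of a Saccharomyces cerevisiae strain labelled met28, a deletion of the sulfur regulator gene MET28, was examined across all open reading frames (ORFs). It was 1 of 4 samples in a series on deletions of transcription factors of sulfur amino acid metabolism, the others being met31, met32 and cbf1, and each strain had 1 column of values. RNA of the deletion strain was hybridised with RNA labelled "wt+met", wild type with methionine, on a 2-colour array. Per the labels' protocols, colonies were picked from rich plates with G418 and grown in YNB, a defined medium, to mid-density before hot phenol extraction. The ORFs described were those with a value other than 0, since an exact 0 was treated as not measured. A 0 was listed 1018 times, whereas the values up to 0.006 away from it occurred at most 37 times each. This gave 5242 measured ORFs of the 6260 listed. The labels name methionine for the reference channel alone, so an effect of the deletion and an effect of the added methionine cannot be told apart. The sources used here do not give the strain background. They state at least 2 separate biological samples per strain, each from a colony, and do not say how these were combined into the column.

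Met28 is a basic leucine zipper protein with no strong activation domain of its own. It joins Cbf1 and the activator Met4 on DNA and stabilises that complex at genes of sulfate assimilation. When methionine is plentiful, the ubiquitin ligase subunit Met30 restrains Met4, and the sulfur genes of a wild-type cell are turned down. The pathway is best known for the enzymes that reduce sulfate to sulfide and for the permeases that import sulfur compounds.

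All values are printed as deposited. They were taken as log ratios of the channels whose base is not stated, and the label gives the dye of each channel as "Cy3 or Cy5". Deletion strain over reference is the likely direction, since MET28 itself (YIR017C) had the lowest of all measured values, -1.294. If the scale is log10 this is 19.7-fold below the reference channel, and if it is log2 it is 2.45-fold below. With n = 1 there was no replicate check, and no test, p-value or error could be given for any value below. ORFs are described by size instead, as members of the highest 2.5% (131 ORFs at 0.269 or above, 2.5% of those measured) or the lowest 2.5% (133 ORFs at -0.205 or below, 2.54%). The values just outside were 0.268 and -0.204. Among all measured ORFs 50.7% were above 0 and 49.3% below, and counts of list members by sign are to be read beside these shares. The measured values had a median of 0.0015, quartiles of -0.051 and 0.055 and a robust SD of 0.0778 over ORFs, which is a spread between genes and not a measurement error.

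**Figure D1:**
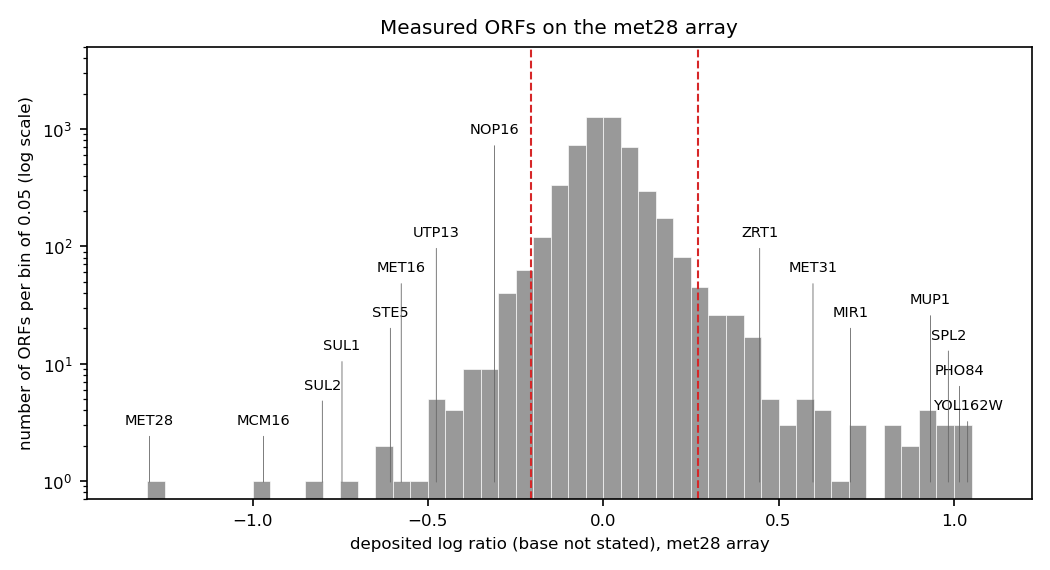
Histogram of the 5242 measured values on the met28 array in bins of 0.05, with the number of ORFs on a log scale and dashed lines at the edges of the highest and lowest 2.5%. MET28 stands alone at -1.294, MCM16 follows at -0.969, and the highest ORF, YOL162W, is at 1.039.

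The largest values included genes outside sulfate assimilation. Among all 5242 measured ORFs, the 8 sulfur lists held 72 and the phosphate lists 25. The share of measured ORFs in no list was not counted, so counts of such ORFs are descriptions only. Of the 30 highest ORFs with a symbol, 14 belonged to the 8 sulfur lists, 3 to the phosphate lists and 9 to no list at all. The 9 were ARP10 (0.936), KAR5 (0.833), CBP2 (0.684), HXT12 (0.632), LEE1 (0.593), BFA1 (0.585), IMP21 (0.494), OSI1 (0.478) and VHS1 (0.463). Their known roles are diverse: ARP10 encodes a dynactin component, KAR5 a protein of nuclear fusion in mating, CBP2 a splicing factor of the mitochondrial cytochrome b transcript, and BFA1 a part of the spindle position checkpoint. HXT12 is listed as a pseudogene in the gene table and is similar to other hexose transporter genes, and its signal may include theirs.

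At the low end, 8 of the 30 lowest ORFs with a symbol belonged to the sulfur lists, 2 to the ribosome biogenesis lists, 0 to the phosphate lists and 13 to no list. The ribosome biogenesis lists held 97 of the 5242 measured ORFs. MCM16, which encodes a kinetochore protein, was at -0.969. Next outside the sulfur genes was STE5, the scaffold of the pheromone MAP kinase cascade, at -0.607. SPO11, whose product makes the double-strand breaks of meiotic recombination, was at -0.417, and TRZ1, the tRNA 3' processing enzyme gene, at -0.414. Further low genes of no list were ELA1 (-0.397), the elongin A gene, CYK3 (-0.368), a cytokinesis gene, MNN4 (-0.363), a regulator of mannosylphosphate addition, and CHA4 (-0.316), an activator of serine and threonine breakdown.

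How many of these extreme ORFs were also measured on the other arrays differed between the ends. Of the 131 high ORFs, 49 (37.4%) were listed at 0 on at least 1 of the other 3 arrays, against 581 (11.1%) of all 5242. For the 133 low ORFs the count was 26 (19.5%). The cbf1 array contributed most, with 34 of the high ORFs (26.0%) and 22 of the low ORFs (16.5%) at 0, against 4.01% of all measured ORFs. Of the 30 highest ORFs with a symbol, 10 were at 0 on another array, and of the 30 lowest, 2. What an exact 0 stands for was not tested.

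The single highest ORF had no symbol and was chosen for mention after its value was seen. YOL162W was at 1.039, and its neighbour YOL163W was at 0.825. The next ORF in that order is BDS1 (YOL164W), the sulfatase gene, at 0.808, so 3 consecutive ORFs near the left end of chromosome XV lay in the highest 2.5%. YOL162W and YOL163W were listed at 0 on the met31 and cbf1 arrays. On the met32 array, whose direction is not settled, they were at -0.194 and 0.028.

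Several permease genes for compounds other than sulfate were among the high ORFs, while the sulfate permease genes SUL2 and SUL1 were at -0.801 and -0.745. For the Dal5 family, a group of related anion permeases, 8 genes with a symbol were listed, and ORFs without a symbol were not considered. The median over the 6 measured genes was 0.299, and 3 of them were in the highest 2.5%. SEO1, a putative permease gene, was at 0.956, YCT1, the cysteine transporter gene, at 0.591, and VHT1, the biotin transporter gene, at 0.386. Biotin contains sulfur. TNA1 (nicotinic acid) at 0.212 and FEN2 (pantothenate) at 0.192 were outside the tail, and DAL5 (allantoate) was at -0.107. SOA1 and THI73 were listed at 0. The Dal5 family and the amino acid permease lists were drawn up after values had been seen, and YCT1 and SEO1 are members of the sulfur lists as well.

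Among other amino acid permeases and vacuolar amino acid transporters, 16 of 17 measured members were above 0, against 50.7% of all measured ORFs. The median was 0.047, and 11 of the 28 listed genes were at exactly 0. In the highest 2.5% were TAT1 (0.516), which takes up tyrosine and branched-chain amino acids, the vacuolar transporter genes VBA2 (0.433) and VBA3 (0.390), and AGP2 (0.362), which acts in carnitine and polyamine transport. The general permease gene GAP1 was at 0.007 and the arginine permease gene CAN1 at 0.042, close to the median of all ORFs. TAT1 was listed at 0 on the met32 and cbf1 arrays.

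Methionine salvage and methionine repair genes gave a divided picture. ADI1, which encodes the dioxygenase of the salvage pathway, was at 0.547 and MXR1, a methionine sulfoxide reductase gene, at 0.397, both in the highest 2.5%. The other salvage genes MRI1 (0.125), MEU1 (-0.012), UTR4 (-0.014) and MDE1 (-0.124) were in neither tail, as were all 4 polyamine synthesis genes. Those ran from -0.059 (SPE3) to 0.017 (SPE1), and the list of 14 measured genes had a median of 0.001. Of related genes, CYS3, the cystathionine gamma-lyase gene, was at 0.226 and GRX8, a glutaredoxin gene, at 0.444. GRX8 was the only one of 26 measured oxidative stress genes in a tail, and that list's median was 0.001.

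**Figure D2:**
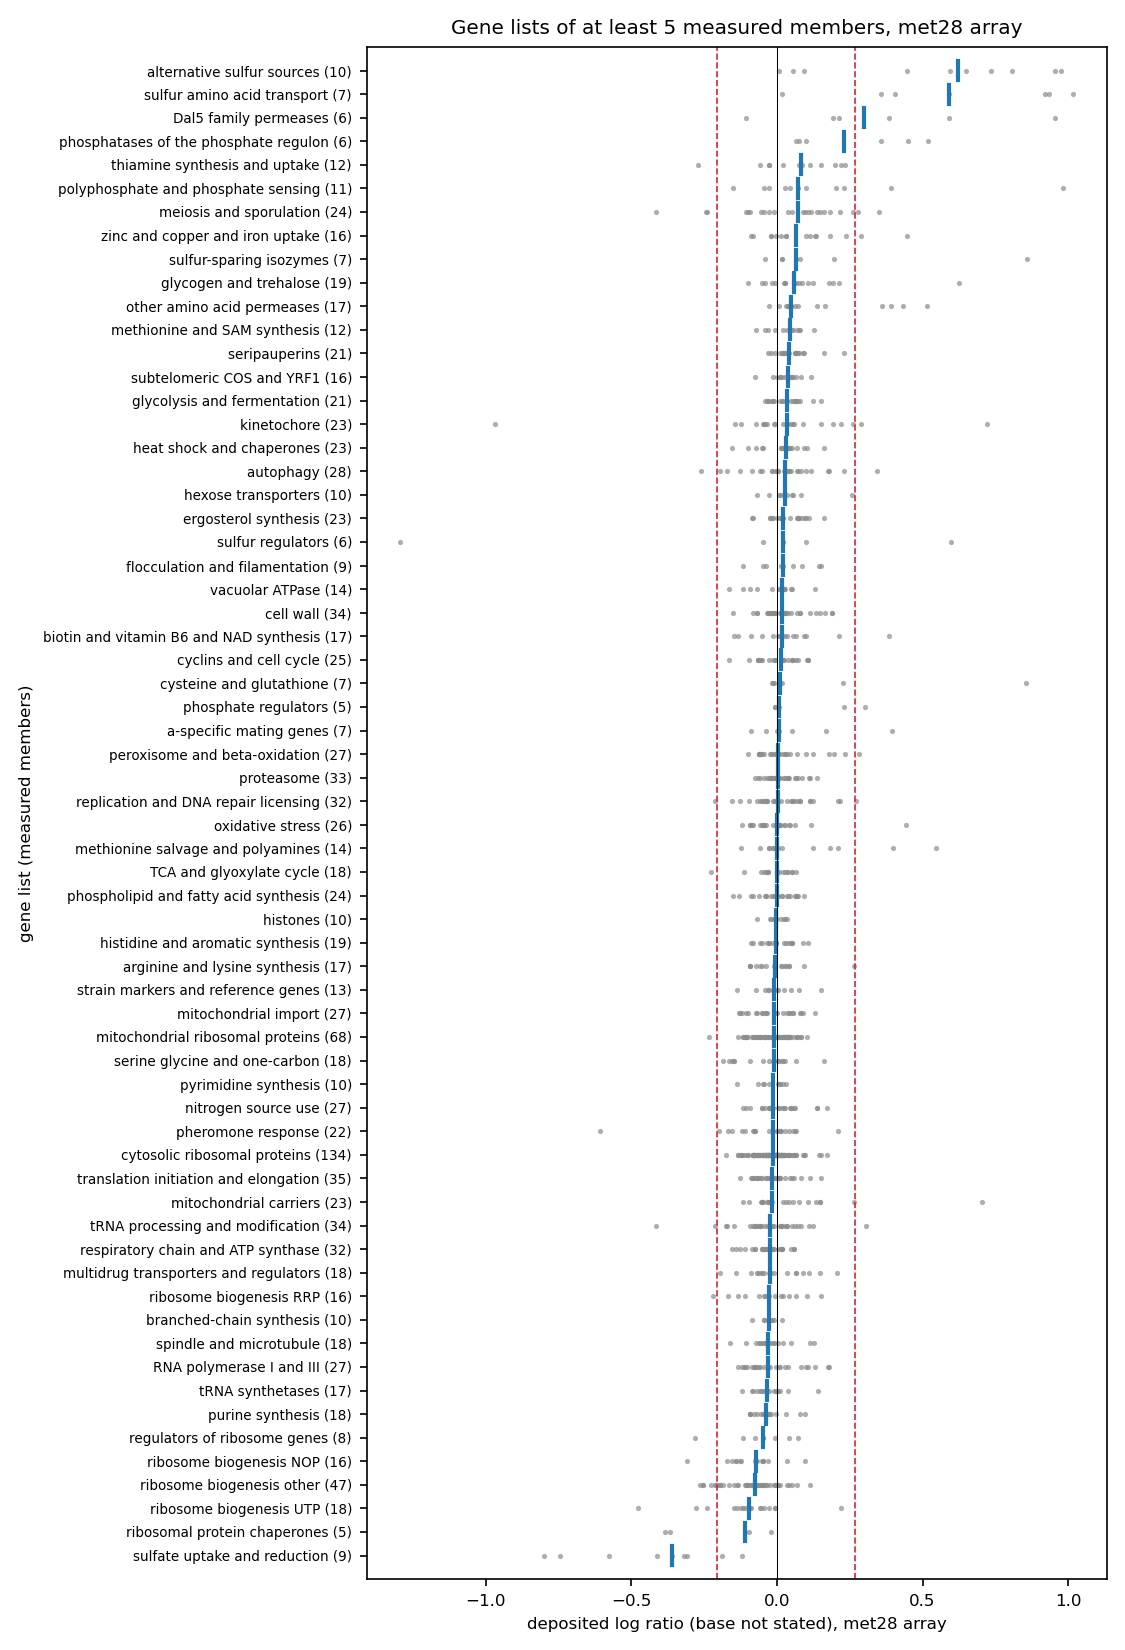
Measured members (grey points) and median (blue bar) of each gene list with at least 5 measured members, ordered by median, with dashed lines at the edges of the highest and lowest 2.5%. Alternative sulfur sources (0.622) and sulfur amino acid transport (0.591) have the highest medians, sulfate uptake and reduction (-0.362) the lowest, and most other lists lie close to 0.

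Outside sulfur metabolism, several genes for phosphate acquisition had high values. The regulon works through the factor Pho4, which enters the nucleus when phosphate is scarce and is held back by the cyclin-dependent kinase Pho80-Pho85, itself inhibited by Pho81. Of 25 measured genes in 4 phosphate lists, 19 were above 0, against 50.7% of all measured ORFs. In the highest 2.5% were 7 (28%), and 0 were in the lowest. Like all lists here, these were chosen with earlier results of these data known, so the counts are descriptions only. The median was 0.077, beside 0.0015 for all measured ORFs.

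By role, the uptake genes were uneven. PHO84, the high-affinity transporter gene, was at 1.016, the third highest value of the array. The low-affinity transporter genes PHO87 and PHO90 were at 0.169 and -0.075, the vacuolar exporter gene PHO91 was at 0.049, and PHO89 and GIT1 were listed at 0. SPL2, which encodes a negative regulator of low-affinity uptake, was at 0.984.

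All 6 phosphatase genes were above 0. The secreted acid phosphatase genes PHO5, PHO12 and PHO11 were at 0.519, 0.451 and 0.358, all in the highest 2.5%. PHO12 and PHO11 have almost the same sequence, so their signals may not be separate. PHM8, PHO3, the constitutive acid phosphatase gene, and PHO8, the vacuolar alkaline phosphatase gene, were at 0.101, 0.077 and 0.066.

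The polyphosphate polymerase genes were less far from 0, with VTC1 at 0.204, VTC4 at 0.071, VTC2 at 0.029 and VTC3 listed at 0. Among the polyphosphatase genes PPN1 was at -0.028 and PPX1 listed at 0, as was PHO86, which helps Pho84 leave the endoplasmic reticulum. PHM6, a phosphate-regulated gene, was at 0.390 and in the highest 2.5%, whereas PHM7 was at -0.150. The inositol pyrophosphate genes KCS1, VIP1 and DDP1 were at -0.046, 0.046 and 0.100.

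Of the regulators, the cyclin gene PHO80 was at 0.301, in the highest 2.5%, and the inhibitor gene PHO81 at 0.231, outside it. PHO4 and PHO2, the transcription factor genes themselves, were at 0.008 and -0.007, PHO23 was at -0.006, and PHO85 and PHO92 were listed at 0. A further phosphate gene from outside these lists was MIR1, the mitochondrial phosphate carrier gene, at 0.705. MIR1 was the only one of 23 measured mitochondrial carrier genes in a tail, and PIC2, the gene of a related phosphate carrier, was at -0.022. The carrier list was added after values had been seen.

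The leading phosphate genes were picked by their values on met28. Lower values on the other arrays were therefore likely beforehand and do not show a trait particular to met28. PHO84 was at 0.243 on met31, -0.097 on met32 and -0.184 on cbf1, PHO5 at -0.013 on met31 and -0.107 on cbf1 and listed at 0 on met32, and PHO12 at -0.035, 0.070 and 0.038. PHM6 was at 0.334 on met31 and 0.195 on cbf1, beside 0.390 on met28. SPL2 was listed at 0 on met31 and was at -0.002 on met32 and 0.154 on cbf1. The direction of the met32 array is not settled. The medians over the measured members of the 4 lists were -0.014 on met31, -0.013 on met32 and -0.014 on cbf1, against 0.077 on met28. With 1 column per strain these differences have no test. The met28 and cbf1 arrays carry the same reference label. For met31 and met32 no shared reference label is stated here, so deletion and reference may both differ from met28 wherever those arrays are compared.

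**Figure D3:**
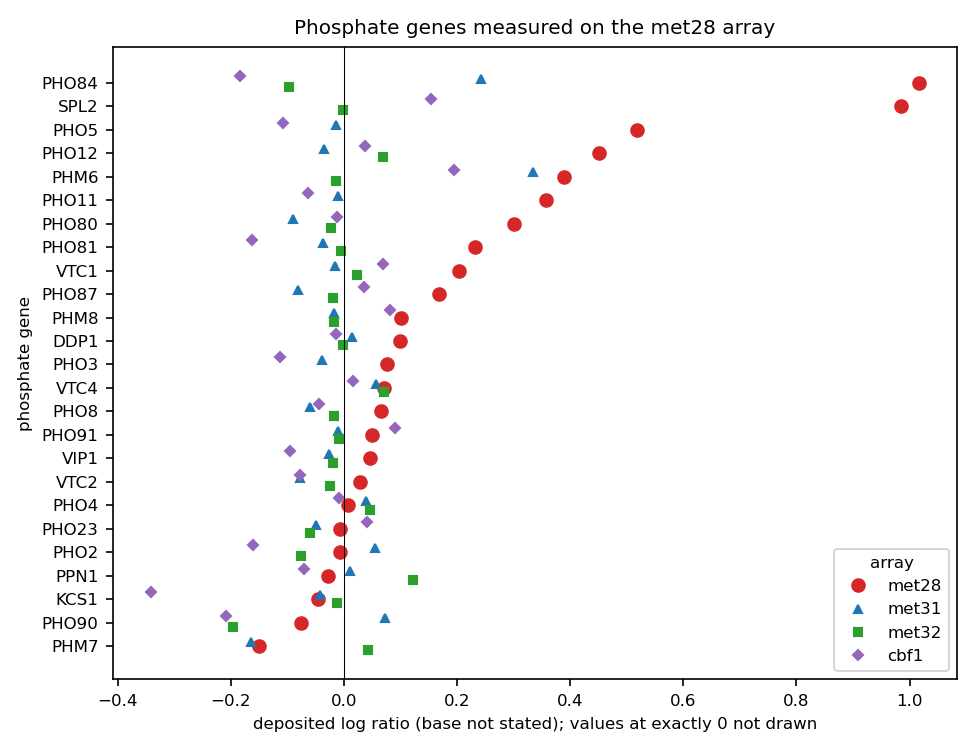
Deposited log ratios of the 25 phosphate genes measured on the met28 array (red circles), with their values on the met31, met32 and cbf1 arrays and values of exactly 0 left out. PHO84 (1.016) and SPL2 (0.984) are far to the right on met28, while PHO84 lies between -0.184 and 0.243 on the other arrays.

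Of the metal uptake genes, a zinc and an iron transporter gene were high. ZRT1, the high-affinity zinc transporter gene, was at 0.446 and ZAP1, its activator gene, at 0.113, while ZRT2 was at -0.020. Among iron genes the siderophore transporter gene ARN2 was at 0.287 and FIT2, a cell wall mannoprotein gene of siderophore retention, at 0.236. FET3, the ferroxidase gene, was at 0.135 and its partner permease gene FTR1 at -0.004. Over the 16 measured metal uptake genes the median was 0.0665, with 2 in the highest 2.5%. Above 0 were 11 of the 16, against 50.7% of all measured ORFs. ARR3, an arsenite exporter gene, was at 0.431 and MPH3, a maltose permease gene, at 0.437, and both lay among the 10 outermost ORFs of their chromosome arms. In the thiamine list the near-identical genes THI5, THI11 and THI12 were at 0.152, 0.232 and 0.200, THI4 at 0.221 and THI22 at -0.270. THI22 was in the lowest 2.5% and 0 members were in the highest, and the median was 0.0815 over 12 measured of 18 listed, or 0 with the values of 0 counted.

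Genes for making ribosomes lay mostly below 0. They encode the nucleolar machinery that processes ribosomal RNA and builds both subunits, and in yeast they are known to be expressed together with growth rate. Of 97 measured genes in 4 lists, 80 (82.5%) were below 0, 12 (12.4%) were in the lowest 2.5%, which holds 2.54% of all measured ORFs, and 0 were in the highest. The median was -0.069, with quartiles of -0.136 and -0.026, beside 0.0015 for all measured ORFs.

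The UTP genes, named for subunits of the small-subunit processome, were lowest, with a median of -0.0945 and 17 of 18 below 0. UTP13 was at -0.476, UTP11 at -0.279 and UTP7 at -0.242, and UTP6 (0.219) was the exception. NOP genes had a median of -0.073 with 14 of 16 below 0, and NOP16, a large-subunit assembly gene, was at -0.310. The 47 measured genes of other names had a median of -0.074. In the lowest 2.5% were SPB1 (-0.264), a methyltransferase gene, YTM1 (-0.254), CBF5 (-0.253), the pseudouridine synthase gene of the box H/ACA particles, MPP10 (-0.227), EBP2 (-0.212), DHR2 (-0.209), an RNA helicase gene, and RPF2 (-0.205).

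RRP genes, named for rRNA processing, were nearer 0, with a median of -0.029 and 10 of 16 below 0. RRP14 was at -0.219, whereas the exosome gene RRP46 and the U3 particle gene RRP9 were at 0.151 and 0.103. UTP13 and NOP16 were picked by their low values on met28, so values nearer 0 on the other arrays were likely beforehand. They were at 0.038 and 0.109 on met31, -0.012 and -0.100 on met32, and -0.113 and -0.013 on cbf1. The median over the 4 lists was 0.0805 on met31, 0.017 on met32, -0.069 on cbf1 and -0.069 on met28, and over all measured ORFs it was -0.002, -0.002, -0.034 and 0.0015.

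Of 5 measured chaperone genes of ribosomal proteins, 2 were in the lowest 2.5%, and the median was -0.109. YAR1, which encodes a chaperone of a small-subunit protein, was at -0.384 and SYO1, which escorts large-subunit proteins into the nucleus, at -0.367. TSR2, BCP1 and ACL4 were at -0.109, -0.097 and -0.022, and SQT1 and RRB1 were listed at 0. IFH1, a coactivator of ribosomal protein genes, was at -0.281, the only one of 8 measured regulators of ribosome genes in a tail. SFP1 was at -0.117, FHL1 at -0.048 and RAP1 at -0.006, while SCH9 and DOT6 were above 0 at 0.073 and 0.041, and the median was -0.0475. These short lists were added after values had been seen, and YAR1, SYO1 and IFH1 prompted them.

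The ribosomal proteins themselves departed far less. Of 134 measured genes of the cytosolic ribosome 89 (66.4%) were below 0, with a median of -0.0145, quartiles of -0.0478 and 0.0108, and 0 in either tail. The extremes were RPS26B at -0.175 and RPS3 at 0.172. Many of these genes come in near-identical pairs, which the array cannot be assumed to separate. Mitochondrial ribosomal protein genes had a median of -0.011 with 40 of 68 below 0, and MRP1 (-0.232) was the only member in a tail. RNA polymerase I and III genes had a median of -0.031 (17 of 27 below 0), tRNA synthetase genes -0.033 (13 of 17), and translation factor genes -0.016 (21 of 35), each with 0 in either tail. In the tRNA processing list, whose median was -0.0225, TRZ1 (-0.414) and MOD5 (-0.212) were low and POP3 (0.307) high. That list was added after values had been seen. Proteasome genes were centred near 0, with a median of 0.003, 18 of 33 above 0 and 0 in either tail.

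**Figure D4:**
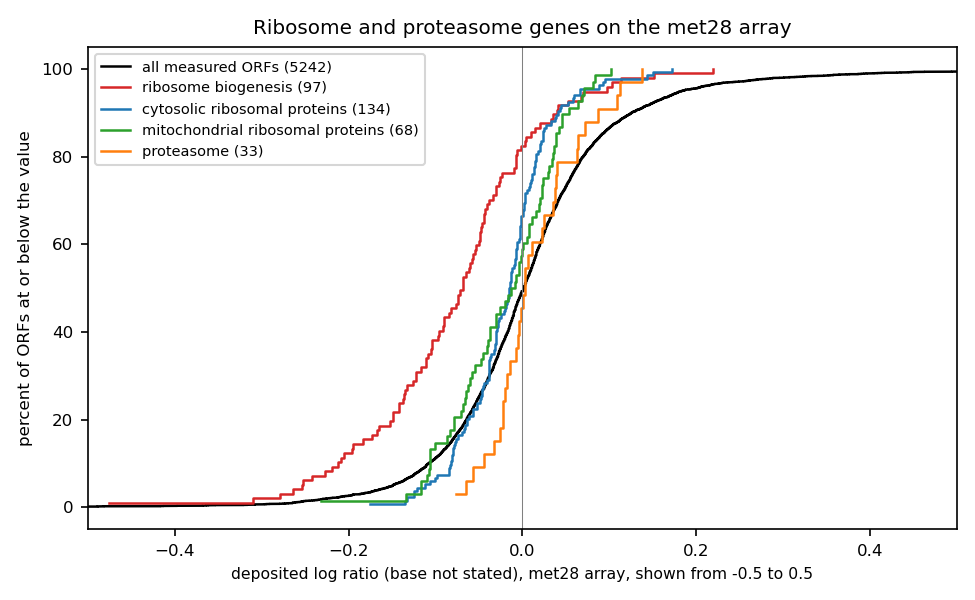
Cumulative percent of ORFs at or below each value on the met28 array for ribosome biogenesis (97 genes), cytosolic (134) and mitochondrial (68) ribosomal proteins, the proteasome (33) and all 5242 measured ORFs. The biogenesis curve lies to the left with 82.5% below 0, while the ribosomal protein and proteasome curves are steep and close to 0.

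Carbon metabolism and respiration showed few extremes. Glycogen and trehalose genes had a median of 0.058, with 14 of 19 above 0, against 50.7% of all measured ORFs. The only tail member was GAC1, a regulatory subunit gene of the glycogen phosphatase, at 0.624. GDB1 (0.212), the debranching enzyme gene, and TPS3 (0.194), a trehalose synthase subunit gene, followed. GAC1 was listed at 0 on the cbf1 array and was at -0.207 on met31. Glycolytic genes had a median of 0.036 and 0 of 21 in a tail, with PGK1 highest at 0.150. Respiratory chain and ATP synthase genes had a median of -0.0225, with 23 of 32 below 0 and 0 in a tail, and CYC1 lowest at -0.154. Among genes of the tricarboxylic acid and glyoxylate cycles the isocitrate lyase gene ICL1 was at -0.225, in the lowest 2.5%, and the list's median was 0. Heat shock and chaperone genes had a median of 0.031, with 18 of 23 above 0 and 0 in a tail. Their extremes were HSP26 at 0.160 and HSP12 at -0.156.

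Biosynthesis of other amino acids and nucleotides stayed close to 0. The arginine and lysine, branched-chain, histidine and aromatic, serine and glycine, purine and pyrimidine lists held 92 measured genes and 0 of them in a tail. Their medians ran from -0.038 (purines) to -0.004 (histidine and aromatic). Sign counts were uneven in a pair of lists: 15 of 18 purine genes and 9 of 10 branched-chain genes were below 0, the latter with a median of -0.029. The lowest single members were MIS1 (-0.185) and GCV2 (-0.165) of one-carbon metabolism, and ARG2, the first enzyme gene of arginine synthesis, was highest at 0.265. GCN4, the general regulator gene of amino acid synthesis, was at -0.047. The 27 measured nitrogen source genes had a median of -0.013 and 0 in a tail.

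Cell type and cell cycle lists were examined to see whether the cultures differed in mating type or proliferation. Of the a-specific genes ASG7 was at 0.396, but STE2, the alpha-factor receptor gene, was at -0.088, STE6 at -0.036, MFA1 at -0.001, AGA2 at 0.008, MFA2 at 0.050 and BAR1 at 0.167. Over these 7 the median was 0.008, with 4 above 0. The alpha-specific genes STE3 and SAG1 were at 0.051 and -0.020, and the other listed members were at 0. In the pheromone response list STE5 was alone in a tail among 22 measured, and the targets and partners STE12 (-0.169), STE7 (-0.119) and STE18 (-0.109) were outside it. The highest member was MSG5 at 0.209, and 10 of the 22 were above 0, with a median of -0.0135. Histone genes ran from -0.067 to 0.034, and 25 measured cyclin and cell cycle genes had 0 in a tail, with SIC1 lowest at -0.164. Of 23 measured kinetochore genes, 1 was in the lowest 2.5% (MCM16 at -0.969) and 2 in the highest (NKP2 at 0.722 and MIF2 at 0.288), with a median of 0.033. Of 45 listed meiosis and sporulation genes 21 were at exactly 0. Among the 24 measured, SPO22 (0.349) and CDA2 (0.280) were high, and SPO11, GAS2 (-0.245) and RED1 (-0.241) low. Genes used as strain markers or references were all outside the tails, with URA3 lowest at -0.136 and LEU2 at -0.030.

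ORFs near chromosome ends were high more often than the rest. The distance was counted in ORFs, from the systematic names, which number ORFs outward along each arm. Of the 10 outermost listed ORFs of the 32 arms, 221 of 320 were measured. Of these, 157 (71.0%) were above 0, against 49.8% of the other 5021 measured ORFs, and the medians were 0.033 and -0.001. In the highest 2.5% were 26 (11.8%), against 105 (2.09%) of the other ORFs, and in the lowest 5 (2.26%) against 128 (2.55%). The percent in the highest 2.5% was 13.4 for the outermost 5 ORFs, 10.1 for the next 5, 4.92 for ORFs 11 to 20 and 2.04 for ORFs 21 to 40.

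The 26 high ORFs lay on 16 arms. Of these, 5 were in the sulfur lists (SEO1, MMP1, MHT1, BDS1 and SAM3) and 2 in the phosphate lists (PHO11 and PHO12). Without members of those lists, 19 of 210 (9.05%) were in the highest 2.5%. They included ZRT1, VBA2, VBA3, MAL12 (0.394), HXT12, MPH3, ARR3, YPS6 (0.354), ARN2 and CSS3 (0.386). Of the 26, 11 were listed at 0 on another array, beside 49 (37.4%) of all 131 high ORFs and 581 (11.1%) of all 5242 measured ORFs. The gene families of chromosome ends had few large values, each with 0 members in a tail. Against 50.7% of all measured ORFs, 18 of 21 measured seripauperin genes were above 0, with a median of 0.040. So were 14 of 16 COS and YRF1 genes, with a median of 0.0395. Many of these ORFs share sequence with other arms, so they are not independent measurements, and the part of such sharing in the count was not tested. On the other arrays the percent of outermost ORFs in the highest 2.5% was 3.83 for met31, 1.72 for met32 and 6.20 for cbf1. The met32 array had 35 of 291 in its lowest 2.5%, with its direction not settled.

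**Figure D5:**
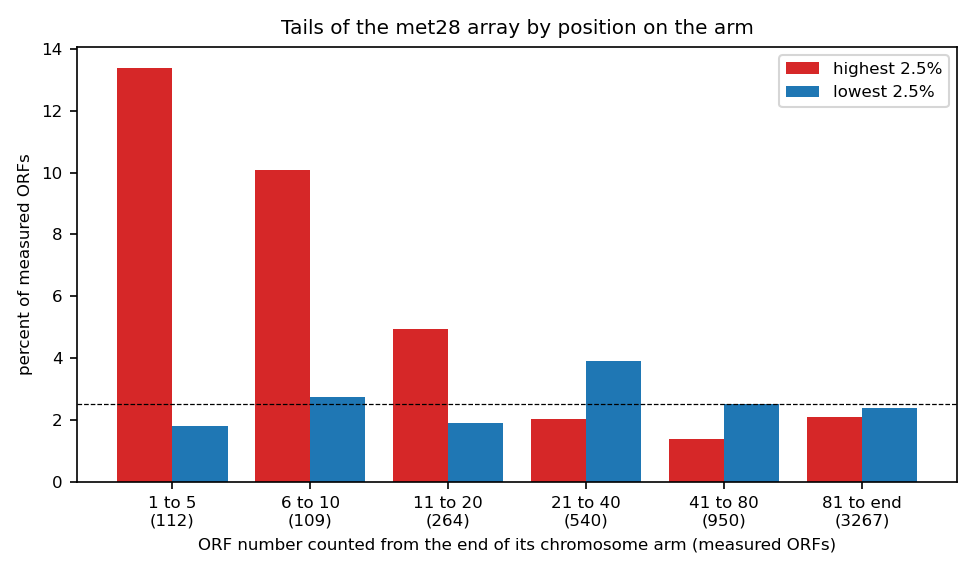
Percent of measured ORFs in the highest (red) and lowest (blue) 2.5% of the met28 array by position counted in ORFs from the end of the chromosome arm, with the number measured in parentheses and a dashed line at 2.5%. The red bars fall from 13.4% for the outermost 5 ORFs to 2.04% for ORFs 21 to 40, while the blue bars stay between 1.79% and 3.89%.

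Neighbouring ORFs shared a tail in places. Of 197 measured neighbours of high ORFs 14 (7.11%) were also in the highest 2.5%, and of 219 measured neighbours of low ORFs 12 (5.48%) were also in the lowest. Neighbours in the opposite tail made up 2.54% for high ORFs and 2.28% for low ORFs. These are near the 2.54% and 2.5% of all measured ORFs in the lowest and highest tails. In all, 13 adjacent pairs lay in the same tail and 5 in opposite tails, and the counts above take each pair from both sides. Whether the ORFs of a pair overlap or share sequence was not examined. Among pairs in the same tail were MHT1 and MMP1, which act in S-methylmethionine use, and UTP13 and IFH1. Opposite pairs included SUL1 (-0.745) beside VBA2 (0.433), CBP2 (0.684) beside EFM1 (-0.264), and KAR5 (0.833) beside AEP1 (-0.275).

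Around the deleted gene itself, the adjacent ORF YAP5, which encodes a factor of iron regulation, was at -0.307, in the lowest 2.5%. On the other side YIR016W was at -0.088. FLO11, the next ORF beyond YAP5, was at -0.037, and YIR020C was at 0.310. The 11 consecutive ORFs from YIR005W to YIR015W were all listed at 0 on this array, the longest such run. In that run 4 were also at 0 on met31, 0 on met32 and 9 on cbf1. Over the whole array, 273 of the 486 ORFs that the gene table does not list were at 0 (56.2%), against 745 of 5774 that it lists (12.9%). Among measured ORFs absent from the table, 16 of 213 (7.51%) were in the highest 2.5% and 12 (5.63%) in the lowest.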

How the data were processed

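The authors deposited 1 signed value per ORF and strain. The scale was taken as a log ratio of the channels; the authors' log base, centring, background correction, handling of dyes and averaging of the biological samples named in the labels' protocols were not stated in the sources used here. No intensities were used, so depth cannot be stated, and the number of arrays limits the precision. An exact 0 was treated as not measured.

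Tails are the highest and lowest 2.5% of measured values by rank, ties included. Lists are described by median and counts, without tests, since each strain had 1 column. The members and the 66 lists were chosen with earlier results of these data known. After values were seen, 6 lists were added, and PCA1, CTF19, YRS1, RPP1 and COS111, each misplaced in a list, were removed from it. Genes that could be named were MET28, other sulfur regulators and 5 ORFs on each side of MET28, the 30 highest and 30 lowest ORFs with a symbol, all phosphate genes, and up to 4 members of each other list plus its tail members. Not all of these are printed above. Many sulfur genes of both ends were left out, among them the regulator gene MET31, at 0.598 in the highest 2.5%. Others were named after their values were seen. Symbols came from a RefSeq table of assembly R64, which lists 5774 of the 6260 ORFs. ORF order came from systematic names. Motifs in promoters were not analysed here. Summaries were tested on shuffled values with planted shifts. Python 3.11.15, pandas 2.3.3, numpy 2.4.6 and matplotlib 3.10.9 were used.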

Additional observations from a re-analysis of the deposited data

How the results depend on the processing

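No list median farther from 0 than 1 robust SD of the array (0.0778) changed sign under median centring, zeros counted as values, members measured on all 4 arrays, or means. A move by more than that SD occurred in 19 of 277 alternatives of 69 medians. With zeros counted as values the medians were 0.0475 for phosphate, 0.031 for metal uptake and 0 for thiamine genes. Among lists the text leads with, list means were 0.194 for phosphate and 0.141 for other amino acid permeases, and the Dal5 family median was 0.202 with zeros counted and 0.386 over 3 members measured on all arrays, the smaller number of members being part of that setting. With tails of 1%, 4 phosphate genes were high and 3 ribosome biogenesis genes low; with tails of 5%, 21 biogenesis genes were low and 1 high, and 1 phosphate gene was low. A 2-fold threshold called 102 ORFs higher and 35 lower on a log10 scale, and 3 and 1 on a log2 scale, so the unknown base limits any statement on fold. The share of outermost ORFs in the highest 2.5% kept within 1.5 times under the alternatives run, among them 5 or 20 ORFs from each end and, chosen after seeing the data, only ORFs measured on all arrays or without sulfur and phosphate genes. No paired analysis was possible because each strain has 1 column. The planned motif alternative was not run.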
